A study of Mus musculus with 8 samples.

Results

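The proteins that hold, dock and fuse synaptic vesicles were followed through 10 genes: the SNARE genes Snap25, Stx1a and Vamp2, the synaptotagmins Syt1 and Syt4, the vesicle membrane proteins Sv2a and Syp, the synapsins Syn1 and Syn2, and the small GTPase gene Rab3a. Members were all probe sets to which the array's annotation gives only 1 of these symbols, which made 24 probe sets out of 34945 that name a single gene, and 10 genes out of 18193. Of the 24, 21 passed a filter on low signals and were tested. The other 3 (Syn2 1440762_at, Syn2 1458105_at and Syp 1456249_x_at) were dim on every array, with signals from 0.935 to 21.4, and are given here as values only.

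RNA came from mouse telencephalon of Dlx1/2 mutants, in which a pair of neighbouring homeobox genes of the ventral forebrain is disrupted. There were 4 groups with n = 2 arrays each, 8 arrays in all: basal ganglia (BG) +/-, BG -/-, cortex (Ctx) +/- and Ctx -/-. The controls are heterozygous, so every group carries the mutation and no wild-type array was analysed here. Age and strain are not given in the labels, nor is it said whether a group's arrays came from separate animals, so a p-value here speaks of array-to-array spread alone, part or all of which may be technical. A source label shared by all 8 samples names blood and adrenal medulla, in conflict with the region given for each sample.

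Neurons store transmitter in small vesicles. Vamp2 on the vesicle and Stx1a and Snap25 on the plasma membrane zip into the SNARE complex that drives fusion, and Syt1 is the calcium sensor that couples fusion to an arriving action potential. Synapsins tether vesicles in reserve pools, Rab3a marks them for docking, and Sv2a and Syp are integral proteins of the vesicle membrane. In the embryonic forebrain these genes are switched on as neurons leave the cell cycle and extend axons, before most synapses have formed.

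Promoter windows are shown for Syt1, Sv2a, Syp and Syn2, and for Syn1, whose window held the rarer letters searched for. Each of the former had at least 1 probe set higher in basal ganglia than in cortex in both genotypes at an adjusted p under 0.05 in limma. RefSeq windows on assembly GRCm38.p6, from 250 bases before to 50 bases after a start, were used for 7 of the 10 genes, in 10 windows. No window was at hand for Snap25 and Vamp2, and Syt4 was left out of the search. Each is written 5′ to 3′ on the gene's strand, and capitals mark a match to 1 of the 3 motifs. For Syt1 and Syn2 the first of 2 windows is printed.
Syt1, chr10:109010926-109011225, minus strand: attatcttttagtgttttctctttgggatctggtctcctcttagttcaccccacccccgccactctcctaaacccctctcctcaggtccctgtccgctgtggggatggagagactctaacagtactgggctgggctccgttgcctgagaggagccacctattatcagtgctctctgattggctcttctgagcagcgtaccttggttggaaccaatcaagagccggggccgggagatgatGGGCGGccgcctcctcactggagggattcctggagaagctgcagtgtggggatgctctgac
Sv2a, chr3:96180977-96181276, plus strand: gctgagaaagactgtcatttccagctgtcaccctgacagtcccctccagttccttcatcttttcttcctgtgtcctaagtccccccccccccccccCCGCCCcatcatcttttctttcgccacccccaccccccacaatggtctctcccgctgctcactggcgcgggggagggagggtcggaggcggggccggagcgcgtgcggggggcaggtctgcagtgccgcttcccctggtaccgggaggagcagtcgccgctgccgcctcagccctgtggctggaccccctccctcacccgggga
Syp, chrX:7638330-7638629, plus strand: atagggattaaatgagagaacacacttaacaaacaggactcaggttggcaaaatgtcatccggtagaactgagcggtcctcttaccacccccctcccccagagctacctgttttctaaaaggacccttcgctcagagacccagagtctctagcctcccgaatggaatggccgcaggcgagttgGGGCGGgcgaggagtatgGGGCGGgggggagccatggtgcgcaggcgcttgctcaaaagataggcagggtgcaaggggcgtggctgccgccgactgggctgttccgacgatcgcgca
Syn2, chr6:115134652-115134951, plus strand: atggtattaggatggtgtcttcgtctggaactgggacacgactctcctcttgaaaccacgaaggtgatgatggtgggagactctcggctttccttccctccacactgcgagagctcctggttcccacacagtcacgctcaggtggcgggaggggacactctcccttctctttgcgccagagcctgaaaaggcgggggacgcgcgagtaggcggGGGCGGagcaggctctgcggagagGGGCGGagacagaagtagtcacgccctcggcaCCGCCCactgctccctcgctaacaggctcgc
Syn1, chrX:20920869-20921168, minus strand: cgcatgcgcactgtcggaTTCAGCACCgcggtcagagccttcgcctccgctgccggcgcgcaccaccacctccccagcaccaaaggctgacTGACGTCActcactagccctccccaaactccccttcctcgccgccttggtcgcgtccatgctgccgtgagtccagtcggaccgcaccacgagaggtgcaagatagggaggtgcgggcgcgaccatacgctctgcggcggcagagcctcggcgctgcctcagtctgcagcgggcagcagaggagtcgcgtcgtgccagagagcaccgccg
The capitals in Syt1, Sv2a, Syp and Syn2 are GC boxes, GGGCGG or CCGCCC on the other strand, the letters bound by Sp1-type factors. Those in Syn1 are TTCAGCACC, the left part of the RE1 element bound by the neuronal gene repressor REST, and TGACGTCA, the cyclic AMP response element. Both strands were searched, and no motif is contained in another. GC boxes were in 6 of the 10 member windows used, which leave out Syt4, against 35.7% of all 32851 windows. The RE1 part was in 1 of 10 against 0.371%, and the cyclic AMP element in 1 of 10 against 1.79%. In Syn1 the RE1 letters began at position -232 from the start and the cyclic AMP element at -159, while the GC box of Syt1 began at -11. These are matches of letters and show no binding.

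The arrays had been scaled alike before deposit, with a mean signal of 150.001 on each array after trimming 2% of values at each end. In basal ganglia Dlx1 read 1232 and 1237 on the +/- arrays and 3.67 and 15.5 on the -/- arrays, and in cortex 138 and 137 on the former and 2.42 and 1.74 on the latter, which follows the labels. Summed signals of 10 ventral telencephalic markers lay between 6898 and 7182 in BG +/- and at 951 and 952 in Ctx +/-, and 8 cortical markers summed to 4212 to 4274 and 10174 to 10721. Of the adrenal medulla's defining markers, Th read 2.9 to 52.2, Dbh 27.2 to 96.8 and Pnmt 32.9 to 97.2 over the 8 arrays, while Chga and Chgb, chromogranins that neurons also make, read 162 to 261 and 267 to 454. The 7 adrenal markers summed to 626 to 925. Control probe sets also moved with the groups. For the spiked-in dap RNA the 3' probe set averaged 1443 ± 106 (SD) on +/- and 887 ± 76.3 on -/- arrays of basal ganglia, against 629.9 ± 194 and 267 ± 117 for cortex, and the 18S ribosomal RNA 5' probe set read 1124 and 5265 in BG +/-, 449.7 to 1126 in BG -/- and 97 to 190.4 on the 4 cortical arrays. Their part in the results was not tested. Xist, expressed from the inactive X chromosome of females, read 34.2 to 67.5 on the 4 +/- arrays and 2339.9 to 2519 on the 4 -/- arrays, and the Y-linked Eif2s3y read 241 to 448 and 1.2 to 6.46. Sex and genotype therefore cannot be told apart in any genotype comparison.

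**Figure D1:**
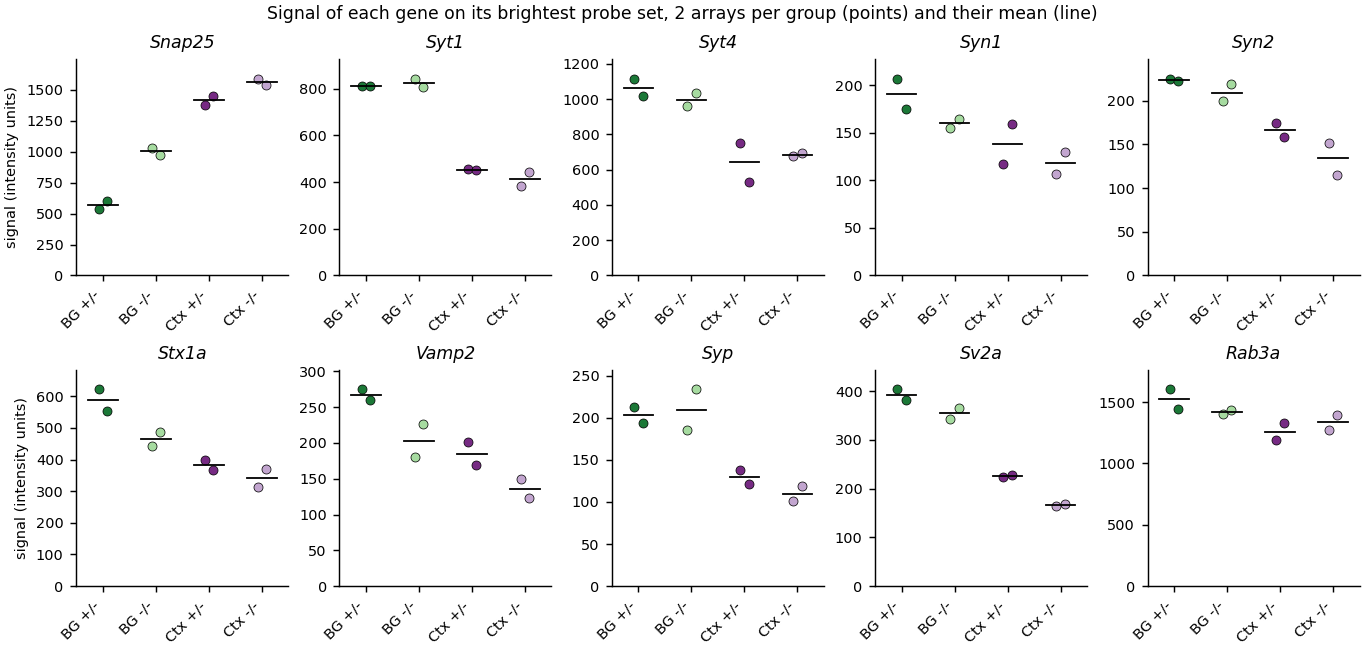
Signal of each of the 10 genes on its brightest probe set, in intensity units on a linear axis from 0, with 1 point per array and a line at the mean of the 2 arrays of a group. Snap25 is highest in cortex, and in basal ganglia its -/- arrays (1030.3 and 974) lie above its +/- arrays (536 and 598), while Syt1, Sv2a and Syp are higher in basal ganglia than in cortex in both genotypes.

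The first comparison asks whether loss of Dlx1/2 changed these genes in basal ganglia, where both transcription factors are normally made. Snap25 was the 1 gene that passed the test, on 1 of its 2 probe sets, and it was higher in the mutant. Its probe set 1416828_at read 536 and 598 in BG +/- and 1030.3 and 974 in BG -/-. Both mutant arrays lay above both control arrays. On the log2(signal + 16) scale used throughout, the difference was 0.81 ± 0.12 (SE), with a 95% interval of 0.52 to 1.09 and an adjusted p of 0.0134 (limma, Benjamini-Hochberg over all 31526 probe sets). That is 1 of 21 member probe sets. Of all probe sets 9.74% were called in this comparison in either direction (7.50% higher and 2.23% lower). The share of member probe sets called was thus no larger than the background. By genes it was 1 of 10 against 7.82%. Markers of other cells moved between the same arrays. The summed signal of 5 red cell markers went from 5951 and 6256 in BG +/- to 3118 and 3265 in BG -/-. That of 10 ventral telencephalic markers went from 6898 and 7182 to 3891 and 3931, but these include the disrupted Dlx1 and Dlx2. Dlx1 went from a mean of 1234 to 9.57 and Dlx2 from 323 to 8.62. Of the others, Dlx5 went from 712 to 68.4, Isl1 from 1564 to 1399, Lhx6 from 536 to 428 and Gsx2 from 213 to 215. Of 15 neuronal markers 2 rose (13.3%, all genes 4.76%) and 0 fell (all genes 3.05%). The sum of the 15 lay between 41147 and 43092 in BG +/- and between 40424 and 41717 in BG -/-. Their part in the Snap25 difference was not tested.

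The Snap25 call rests on all 4 basal ganglia arrays. Leaving out replicate 2 or 3 of BG +/- gave an adjusted p of 0.0744 or 0.0503. Leaving out replicate 2 or 3 of BG -/- gave 0.0929 or 0.0823. With only the basal ganglia arrays fitted it was 0.0523. The second Snap25 probe set, 1447763_at, was far dimmer, at 63.3 and 66.4 in BG +/- and 76.5 and 84 in BG -/-, and differed by 0.25 ± 0.23 (adjusted p = 0.531). Averaged over both probe sets, Snap25 differed by 0.53 ± 0.13 (adjusted p = 0.0569), an alternative chosen after the data were seen.

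Its partners in the SNARE complex did not pass the test. Stx1a, on 1437390_x_at, read 622 and 554 in BG +/- against 444 and 487 in BG -/-, a difference of -0.33 (95% interval -0.66 to 0.01, adjusted p = 0.185). Vamp2, on 1420834_at, read 275 and 260.2 against 180 and 226, a difference of -0.38 (interval -0.77 to 0.01, adjusted p = 0.19). The second probe sets of Stx1a and Vamp2 differed by -0.45 and -0.44, and neither passed. On these 4 probe sets both mutant arrays lay below both control arrays. Such a separation, with no overlap, was found lower for 11 and higher for 4 of the 21 member probe sets, against 28.6% and 31.3% of all probe sets.

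Of the synaptotagmins, Syt1 gave different answers on its 4 probe sets. The brightest, 1433884_at, read 811 and 814 in BG +/- and 843 and 807 in BG -/-, a difference of 0.02 with an interval of -0.27 to 0.31. Probe set 1431191_a_at read 93.6 and 149.5 against 214 and 218, a difference of 0.79 ± 0.21 (adjusted p = 0.0658). Probe set 1438282_at read 107 and 81.8 against 203 and 162, a difference of 0.85 ± 0.23 (adjusted p = 0.0673). The last 2 were higher on both mutant arrays without passing, and 1421990_at, at 193 and 243 against 251 and 237, overlapped between the groups. Whether these probe sets read different transcripts was not tested, and the platform table gives them the same single gene. Syt4, a synaptotagmin found on dense-core and other secretory vesicles, differed by -0.09 on 1415844_at and by -0.06 on 1415845_at, and its arrays overlapped on both.

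**Figure D2:**
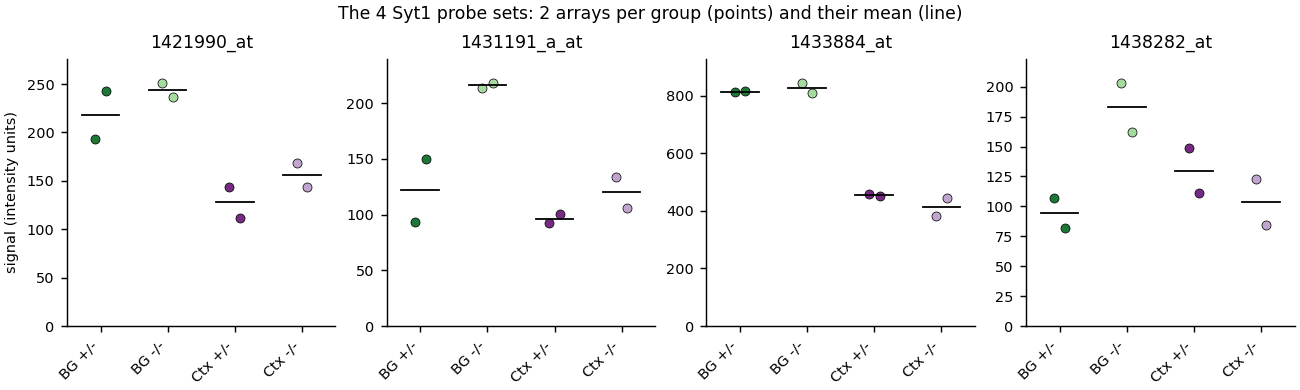
Signal of the 4 Syt1 probe sets, in intensity units on linear axes from 0 that differ between panels, with 1 point per array and a line at the mean of the 2 arrays of a group. On 1433884_at the basal ganglia arrays lie together at 807 to 843, while on 1438282_at the BG -/- arrays (203 and 162) stand above the BG +/- arrays (107 and 81.8).

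Vesicle membrane proteins, synapsins and Rab3a did not pass in basal ganglia either. Sv2a read 404 and 383 in BG +/- and 343 and 366 in BG -/-, a difference of -0.14 (interval -0.41 to 0.12). Syp read 213 and 194 against 186 and 234, a difference of 0.04 (interval -0.34 to 0.41). Syn1 read 207 and 175 against 155 and 165, a difference of -0.23 (interval -0.66 to 0.20). The 4 tested Syn2 probe sets differed by -0.40 to -0.01, the lowest on 1435511_at (adjusted p = 0.131). Rab3a differed by -0.10 on its brightest probe set, 1459980_x_at, and by -0.29 on 1422589_at. Over the 21 probe sets the median difference was -0.09, against 0.01 over all probe sets.

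Syn1 and Syp lie on the X chromosome, the others on autosomes. Among X-linked genes 58 of 445 rose and 9 fell in BG -/- arrays, against 584 and 404 of 13137 autosomal genes, with sex and genotype not separable. Neither Syn1 nor Syp passed in the genotype comparison of either region.

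**Figure D3:**
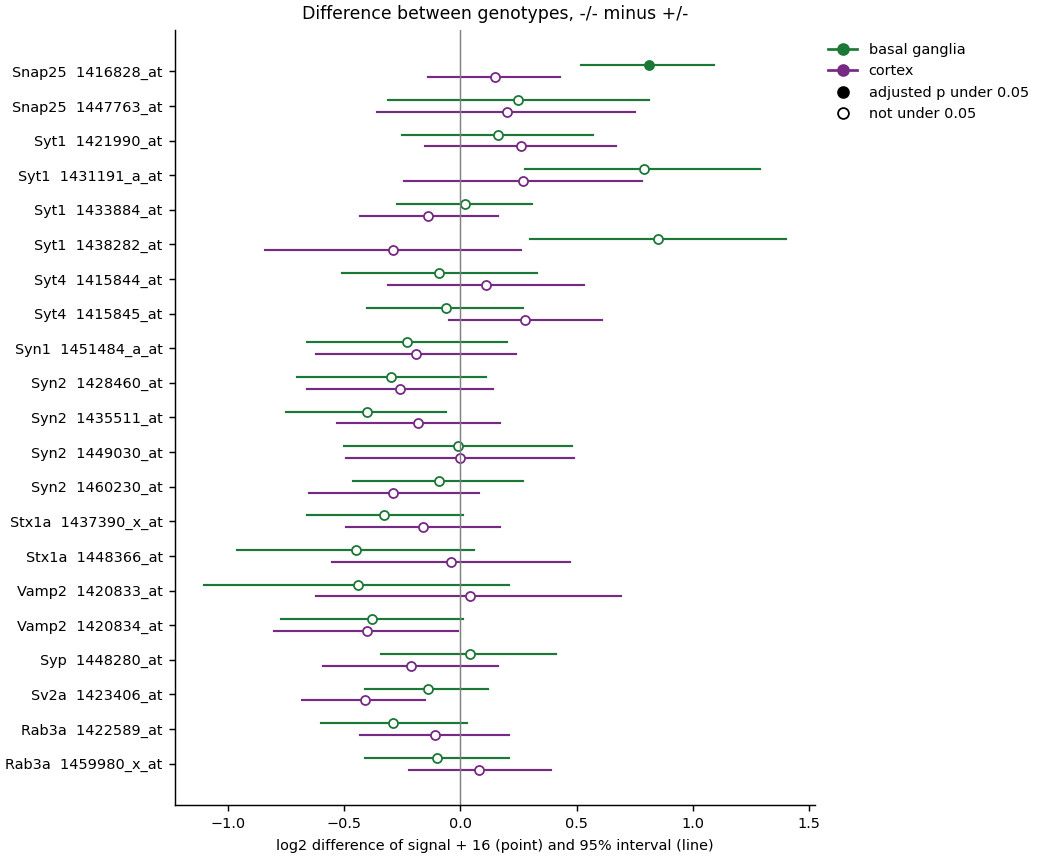
Difference between genotypes (-/- minus +/-) for the 21 tested probe sets, as log2 of signal + 16 with its 95% interval, in basal ganglia (green) and cortex (purple). The filled point, Snap25 1416828_at in basal ganglia at 0.81, is the 1 value with an adjusted p under 0.05.

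In cortex, where interneurons from the basal ganglia normally arrive, 0 of 21 member probe sets passed between the genotypes in limma, against 0.225% of all probe sets, and 2 had an unadjusted p under 0.05 (3050 of all probe sets did). Those 2 were Sv2a and Vamp2, both lower. Sv2a read 225 and 229 in Ctx +/- and 165 and 168 in Ctx -/-, a difference of -0.41 ± 0.11 (adjusted p = 0.315). Vamp2 1420834_at read 201 and 169 against 149 and 123, a difference of -0.40 ± 0.16 (adjusted p = 0.502). Snap25 1416828_at read 1378 and 1449 against 1588 and 1541, a difference of 0.15 (interval -0.14 to 0.43), so both mutant arrays were above both controls without passing. Choroid plexus, the tissue that makes cerebrospinal fluid and adjoins the medial cortex, differed within these arrays: its 7 markers summed to 12135 and 13999 in Ctx +/- and to 47 and 103 in Ctx -/-, and their part in any cortical value was not tested.

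The genotype effects in the regions were then compared directly, as the effect in basal ganglia minus that in cortex. No member passed in limma (0 of 21, against 0.574% of all probe sets). An unadjusted p under 0.05 was found for 2 of the 21, against 5569 of 31526 probe sets. For Snap25 1416828_at the difference of effects was 0.66 ± 0.17 (interval 0.26 to 1.06, adjusted p = 0.128), and for Syt1 1438282_at it was 1.14 ± 0.33 (interval 0.36 to 1.92, adjusted p = 0.157). With a prior variance that follows the signal, both passed, with adjusted p of 0.00963 and 0.042. Whether Snap25 responds differently in the regions thus depended on the variance model: both intervals exclude 0 before adjustment, and the adjusted test passed under that alternative alone.

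More of these genes differed between the regions than between the genotypes. Between basal ganglia and cortex of +/- animals, 7 member probe sets were higher in basal ganglia and 1 was lower, of 21, against 11.1% and 12.8% of all probe sets (23.8% in either direction). By genes, 5 were higher and 1 lower of 10, against 14.0% and 10.7% of 13627 genes. The median difference of the 21 was 0.43, against 0.06 over all probe sets. Among -/- arrays, 6 were higher and 1 lower, against 10.7% and 6.59% of all probe sets (17.2% in either direction), and 4 genes were higher and 1 lower against 11.4% and 7.25%, with a median of 0.43 against 0.08. Arrays of the regions were apart and higher in basal ganglia for 13 member probe sets in +/- and 16 in -/-, against 33.6% and 39.3% of all probe sets, and lower for 2 in each, against 28.9% and 28.6%. Because each -/- or +/- group enters 2 comparisons, the values of the regions and of the genotypes share arrays.

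Sv2a, which binds synaptotagmin on the vesicle, was higher in basal ganglia in both genotypes. It read 404 and 383 in BG +/- against 225 and 229 in Ctx +/-, and 343 and 366 in BG -/- against 165 and 168 in Ctx -/-. No cortical array reached a basal ganglia array. The differences were 0.75 ± 0.11 in +/- (adjusted p = 0.00549) and 1.02 ± 0.11 in -/- (adjusted p = 0.00242), and they passed under 18 of 18 alternative settings in each.

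Syt1 on its brightest probe set read 811 and 814 in BG +/- against 457 and 452 in Ctx +/-, and 843 and 807 in BG -/- against 382 and 445 in Ctx -/-. The groups were far apart in both genotypes, with differences of 0.82 ± 0.12 (adjusted p = 0.00568) and 0.97 ± 0.12 (adjusted p = 0.00394). The other Syt1 probe sets were split. Probe set 1421990_at was higher in basal ganglia by 0.70 in +/- (adjusted p = 0.0299) and by 0.60 in -/- (adjusted p = 0.0573). Probe set 1431191_a_at differed by 0.26 in +/- and passed at 0.78 in -/- (adjusted p = 0.0496), and 1438282_at ran from -0.40 in +/- to 0.74 in -/- without passing in either. Averaged over its 4 probe sets, Syt1 differed by 0.35 in +/- (adjusted p = 0.0779) and by 0.77 in -/- (adjusted p = 0.00737).

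Syp, the abundant vesicle protein used as a synapse marker, read 213 and 194 in BG +/- against 138 and 121 in Ctx +/-, and 186 and 234 in BG -/- against 101 and 119 in Ctx -/-. Basal ganglia were higher on every array, by 0.59 ± 0.16 in +/- (adjusted p = 0.0378) and 0.84 ± 0.16 in -/- (adjusted p = 0.0156). With each array centred on its median log2 the +/- value was 0.47 (adjusted p = 0.0843).

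Syn2 again depended on the probe set. On 1428460_at it read 173 and 124 in BG +/- against 75.1 and 85.7 in Ctx +/-, and 121 and 111 in BG -/- against 62.4 and 66.2 in Ctx -/-, with differences of 0.75 (adjusted p = 0.0214) and 0.72 (adjusted p = 0.0317). On its brightest probe set, 1460230_at, the differences were 0.40 (adjusted p = 0.104) and 0.60 (adjusted p = 0.042). Both probe sets had all basal ganglia arrays above all cortical arrays of the same genotype. On 1449030_at the differences were -0.04 and -0.05 and the arrays overlapped, and on 1435511_at they were -0.06 and -0.28. The mean of the 4 gave 0.27 (adjusted p = 0.138) and 0.25 (adjusted p = 0.173). Syn1, its relative on the X chromosome, read 207 and 175 against 117 and 159 in +/-, and 155 and 165 against 107 and 129.8 in -/-, and differed by 0.44 (adjusted p = 0.123) and 0.40 (adjusted p = 0.17).

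Syt4 and Stx1a passed in +/- arrays and not in -/- arrays. Syt4 1415844_at read 1116 and 1017 in BG +/- against 751 and 532 in Ctx +/-, a difference of 0.74 ± 0.18 (adjusted p = 0.0268), and 961 and 1035 against 677 and 694 in -/-, a difference of 0.53 ± 0.18 (adjusted p = 0.0836). Its second probe set, 1415845_at, differed by 0.43 (adjusted p = 0.0651) and 0.08. Stx1a 1437390_x_at read 622 and 554 against 399 and 366 in +/-, a difference of 0.60 ± 0.14 (adjusted p = 0.0249), and 444 and 487 against 313 and 370.4 in -/-, a difference of 0.43 ± 0.14 (adjusted p = 0.0794). Its second probe set differed by 0.05 and -0.36, and the mean of both gave 0.33 in +/- (adjusted p = 0.106). A change of the region difference with genotype, which is the same test as the difference of genotype effects, did not pass for either (-0.21 ± 0.25, adjusted p = 0.7, for Syt4, and -0.17 ± 0.20, adjusted p = 0.695, for Stx1a).

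Vamp2 and Rab3a did not pass in either region comparison. Vamp2 1420834_at read 275 and 260.2 in BG +/- against 201 and 169 in Ctx +/-, and 180 and 226 in BG -/- against 149 and 123 in Ctx -/-. Basal ganglia were higher on all arrays of a genotype, by 0.50 (interval 0.11 to 0.89, adjusted p = 0.0707) and 0.52 (interval 0.13 to 0.92, adjusted p = 0.0738), and 1420833_at differed by 0.44 and -0.04. Rab3a 1459980_x_at read 1604 and 1441 against 1189 and 1332 in +/-, and 1400 and 1437 against 1273 and 1395 in -/-, differing by 0.27 and 0.09, and 1422589_at gave the same 0.27 and 0.09.

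Snap25 ran the other way. Its bright probe set read 536 and 598 in BG +/- against 1378 and 1449 in Ctx +/-, a difference of -1.29 ± 0.12 (adjusted p = 0.00115), and 1030.3 and 974 in BG -/- against 1588 and 1541 in Ctx -/-, a difference of -0.64 ± 0.12 (adjusted p = 0.0157). Every cortical array was above every basal ganglia array. Snap25 thus fell in the order Ctx -/-, Ctx +/-, BG -/-, BG +/-, of which the difference of the cortical neighbours did not pass and Ctx +/- was not tested against BG -/-. On the dim 1447763_at the differences were 0.31 and 0.36, and neither passed. The mean of the 2 probe sets gave -0.49 in +/- (adjusted p = 0.0357) and -0.14 in -/- (adjusted p = 0.483).

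**Figure D4:**
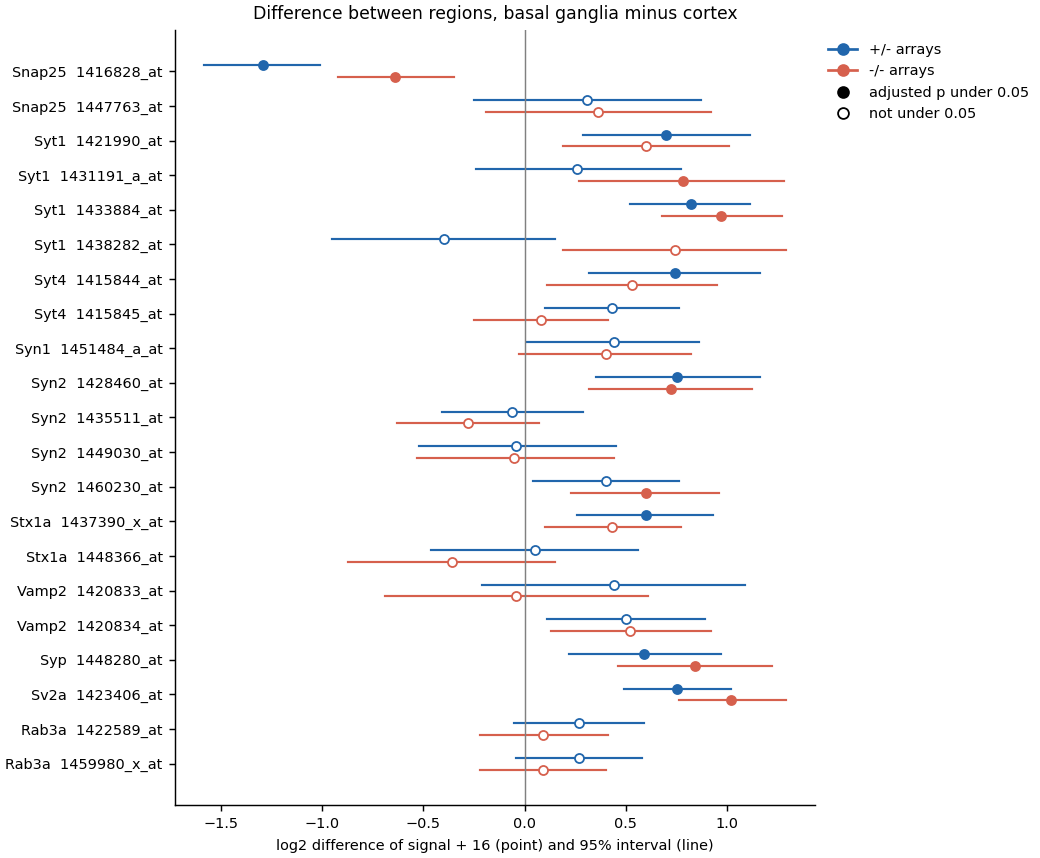
Difference between regions (basal ganglia minus cortex) for the 21 tested probe sets, as log2 of signal + 16 with its 95% interval, among +/- arrays (blue) and -/- arrays (red). Snap25 1416828_at lies at -1.29 and -0.64, and the other filled points, at an adjusted p under 0.05, lie between 0.59 and 1.02.

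How far these counts hold depended on single arrays and on the scaling. Among +/- arrays 8 member probe sets passed in all, and 4 did when replicate 2 or 3 of BG +/- or replicate 3 of Ctx +/- was left out. Of the 7 that passed among -/- arrays, 3 passed without replicate 2 of BG -/-, and 2 when its replicate 3 or either Ctx -/- array was left out. Whichever array was left out, Sv2a and Syt1 1433884_at passed in both comparisons, and Snap25 1416828_at in that of +/-. With each array centred on its median log2, 4 members were higher and 1 lower in +/-, and 3 were higher and 1 lower in -/-, while the median over all probe sets moved from 0.06 to -0.06 and from 0.08 to -0.21. No member changed sign among those past the threshold.

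Markers of neurons moved with the region. The summed signal of 15 neuronal marker genes lay between 41147 and 43092 in BG +/- and between 31733 and 33578 in Ctx +/-, and between 40424 and 41717 in BG -/- and 34412 and 35020 in Ctx -/-. Of the 15, 6 were higher and 1 lower in basal ganglia among +/- arrays in the limma fit. Among -/- arrays 6 were higher and 0 lower. At an unadjusted p under 0.05 there were 12 and 8 of the 15, against 5464 and 4987 of 13627 genes. Shares over all genes were 14.0% higher and 10.7% lower in +/-, and 11.4% and 7.25% in -/-. Among 12 tested markers of progenitors and radial glia, 3 were higher and 5 lower in BG +/-, and their summed signal was higher there too, at 25139 and 25769 against 21226 and 21499 in Ctx +/-, and at 22960 and 23907 against 21696 and 21889 in -/-. In tissue of mixed cells, fewer cells of a type and less RNA per cell cannot be told apart. Blood and immune cells differed too, with 3 of 4 red cell and 4 of 7 microglial markers higher in BG +/-, and the 7 choroid plexus markers summed to 174 and 192 in BG +/- against 12135 and 13999 in Ctx +/-. The part of these markers in the region differences was not tested.

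Beyond the 10 genes, 127 other genes of the release machinery were listed by role, from textbook knowledge, and 117 were tested. In basal ganglia of -/- animals 8 of the 117 rose and 5 fell, with a median difference of -0.01 against -0.08 over all genes. These shares, 6.84% and 4.27%, were near the 4.76% and 3.05% of all genes. When any 1 of the 4 basal ganglia arrays was left out, 1 of these calls remained, the fall of Slc32a1, and without either Ctx -/- array 4 rose and 1 fell. Between the regions 31 were higher in BG +/- and 13 lower (26.5% and 11.1%, all genes 14.0% and 10.7%; median 0.18, all genes 0.11). In BG -/- 25 were higher and 7 lower (21.4% and 5.98%, all genes 11.4% and 7.25%; median 0.24, all genes 0.06). Without 1 array of the groups compared, 15 to 28 were higher in BG +/- and 8 to 13 lower, and 10 to 15 were higher in BG -/- and 3 to 4 lower; the lowest counts of higher genes came without BG +/- replicate 2 and without BG -/- replicate 3. The scaling moved the balance in both genotypes: with each array centred on its median log2 the counts were 18 and 15 in +/- and 17 and 16 in -/-, with medians of 0.06 and -0.05. Centring moved the background too, to medians over all probe sets of -0.06 and -0.21. Of all probe sets called, the part higher in basal ganglia went from 46.4% to 31.6% in +/- and from 61.8% to 26.5% in -/-. In cortex 1 gene fell between genotypes (0.855%, all genes 0.183%) and 0 rose (all genes 0.022%). No gene passed for the difference of effects in limma, where 0.272% of all genes were higher and 0.066% lower. At an unadjusted p under 0.05 there were 17 of the 117, against 2087 of 13627 genes.

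Among 26 SNARE proteins and their regulators, 3 rose in BG -/- arrays (11.5%, all genes 4.76%). These were Stxbp3, a Munc18 protein that binds syntaxins (0.63), Stxbp6 (0.65) and Napb, a SNAP adaptor that helps take spent SNARE complexes apart (0.71). Stxbp3 and Stxbp6 each passed on 1 of 2 tested probe sets, and Napb on 3 of 5. Cplx1, a complexin that clamps the SNARE complex, fell (-0.56), the 1 fall of the 26 (3.85%, all genes 3.05%). Between the regions 2 were higher and 2 lower in BG +/- (7.69% each), shares below the 14.0% and 10.7% of all genes. Among them were Nsf, the ATPase that recycles SNAREs, at 0.71, and Snap23, the relative of Snap25 found outside neurons, at -0.71. In -/- arrays 3 were higher and 1 lower (11.5% and 3.85%, all genes 11.4% and 7.25%). Under median centring the 3 rises in BG -/- arrays did not pass, and 1 gene of the 26 fell.

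Several genes listed as calcium sensors were higher in basal ganglia. The label is that of the list and does not mean that each protein binds calcium. Syt13 and Syt16 are among those counted as higher in both genotypes. Of 15 tested, 6 were higher (40%, all genes 14.0%) and 0 lower in BG +/- in limma. At an unadjusted p under 0.05 there were 9 of 15, against 5464 of 13627 genes. In BG -/- 5 were higher (33.3%, all genes 11.4%) and 0 lower, and again 9 had an unadjusted p under 0.05, against 4987 of 13627 genes. The medians were 0.83 and 0.62. Under median centring they were 0.71 and 0.34, and the counts 5 and 0, and 5 and 1. Doc2b, a soluble double C2 domain sensor of spontaneous release, read 112 and 119 in BG +/- against 14.4 and 26.1 in Ctx +/-, a difference of 1.88 (adjusted p = 0.00201), and was higher by 1.31 in -/- (adjusted p = 0.00866). Its other probe set, 1420666_at, passed in neither, at 0.74 (adjusted p = 0.0584) and 0.81 (adjusted p = 0.0562). Syt13 read 86.3 and 58.6 against 4.7 and 16.2 (1.76, adjusted p = 0.00943) and, in -/-, 88.2 and 101 against 6.74 and 20.8 (1.93, adjusted p = 0.00901), with an adjusted p of 0.0531 without BG +/- replicate 2 in the former and 0.0556 without BG -/- replicate 3 in the latter. The cortical arrays of both genes were near the floor of the signal, where the offset of 16 understates a difference.

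Doc2a, the neuronal relative of Doc2b, was higher by 1.46 in BG +/- (adjusted p = 0.0454), a call lost under median centring (adjusted p = 0.0595), under quantile normalization (0.0763) and without either BG +/- array, either Ctx -/- array or Ctx +/- replicate 2 (up to 0.161). Rph3a, the rabphilin that binds Rab3a, read 172 and 173 in BG -/- against 35.4 and 21.3 in Ctx -/-, a difference of 2.11 (adjusted p = 0.0076), and 0.97 in +/- (adjusted p = 0.0694). Its second probe set, 1449961_at, passed in both, at 1.37 in -/- (adjusted p = 0.00658) and 1.16 in +/- (adjusted p = 0.00894). Syt6 was the gene listed as a calcium sensor that fell in BG -/- arrays, from 91.4 and 71.2 to 35.3 and 40, a difference of -0.85 (adjusted p = 0.0303). Its signals in BG -/- lay within the range of the 4 cortical arrays, 31.9 to 58.5. The call was lost without any 1 basal ganglia or Ctx -/- array (adjusted p up to 0.149).

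The 30 other vesicle proteins include the transmitter transporters. Slc32a1, which loads GABA and glycine into vesicles, read 474 and 403 in the controls of basal ganglia and 24.2 and 42.9 in the mutants, and 46.4 and 46.5 in cortical controls and 1.35 and 0.364 in cortical mutants. It fell by 3.22 in basal ganglia (adjusted p = 0.00165) and by 1.89 in cortex (adjusted p = 0.0231) on the log2 scale, the latter passing in 2 of 8 fits that left out 1 array and set in size by the offset, since both Ctx -/- signals lay far below 16, while its second probe set, 1456457_at, did not pass in basal ganglia (0.20, adjusted p = 0.71). Slc17a6, which loads glutamate, rose from 230 and 236 to 505 and 485 in basal ganglia, by 1.04 (adjusted p = 0.0141), and in +/- arrays it was lower in basal ganglia than in cortex, by -1.21 (adjusted p = 0.00347). Rab3c rose by 0.55 in BG -/- arrays, passing on 1 of its 4 tested probe sets. Rab3d, the Rab3 relative of non-neuronal secretory cells, was lower in basal ganglia by -1.27 in +/- and -1.54 in -/-. Of the 30, 9 were higher and 4 lower in BG +/- (30% and 13.3%, all genes 14.0% and 10.7%), among them the synaptophysin relatives Synpr (1.01) and Syngr3 (1.02). In BG -/- 6 were higher and 1 lower (20% and 3.33%, all genes 11.4% and 7.25%). Under median centring the counts were 6 and 5 in +/-, and 3 and 6 in -/-, so the balance in -/- turned over.

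Active zone proteins hold vesicles at the release site. Of 22, 2 rose in BG -/- arrays (9.09%, all genes 4.76%) and 0 fell (all genes 3.05%). At an unadjusted p under 0.05 in limma there were 8 of 22, against 3670 of 13627 genes. Lin7c, which forms a scaffold with the kinase-like protein CASK, rose from 721 and 733 to 1499.8 and 1351, by 0.95 (adjusted p = 0.0119), and passed on all 4 of its probe sets. Ppfia2, a liprin, rose from 152 and 136 to 277 and 269, by 0.85 (adjusted p = 0.0125). Both were lower in BG +/- than in Ctx +/-, by -0.80 and -0.86, as Snap25 was. For these genes, as for Snap25, the difference of effects between the regions did not pass (adjusted p = 0.0782 for Lin7c and 0.0606 for Ppfia2).

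Rims3, a short RIM protein, read 241 and 136 in BG +/- against 42.9 and 48.3 in Ctx +/-, and 148 and 165 in BG -/- against 23.6 and 24.9 in Ctx -/-. It was higher in basal ganglia by 1.68 (adjusted p = 0.00467) and 2.10 (adjusted p = 0.00269). Lin7a, the relative of Lin7c, was higher in basal ganglia by 1.29 (adjusted p = 0.00244) and 1.57 (adjusted p = 0.00144), the reverse of Lin7c in +/- arrays. The priming factors Unc13b and Unc13c also ran in opposite directions, at -1.14 and 1.12 in +/-. In all, 6 of the 22 were higher and 4 lower in BG +/- (27.3% and 18.2%, all genes 14.0% and 10.7%). In BG -/- 5 were higher and 2 lower (22.7% and 9.09%, all genes 11.4% and 7.25%). Under median centring the counts were 3 and 4 in +/-, and 5 and 3 in -/-.

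Of 24 genes of vesicle endocytosis, which retrieves membrane after fusion, 1 rose and 1 fell in BG -/- arrays (4.17% each, all genes 4.76% and 3.05%). Cltc, the clathrin heavy chain, rose from 1613 and 1564 to 2725 and 2647, by 0.75 (adjusted p = 0.0166), on both of its probe sets. Sh3gl1, an endophilin, fell by 0.61 (adjusted p = 0.0419). Between the regions 8 were higher in BG +/- and 3 lower (33.3% and 12.5%, all genes 14.0% and 10.7%), with the neuronal dynamin Dnm1 at 1.29 and the endophilin Sh3gl2 at -0.99. In BG -/- 6 were higher and 3 lower (25% and 12.5%, all genes 11.4% and 7.25%). Under median centring both pairs of counts became 3 and 3.

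**Figure D5:**
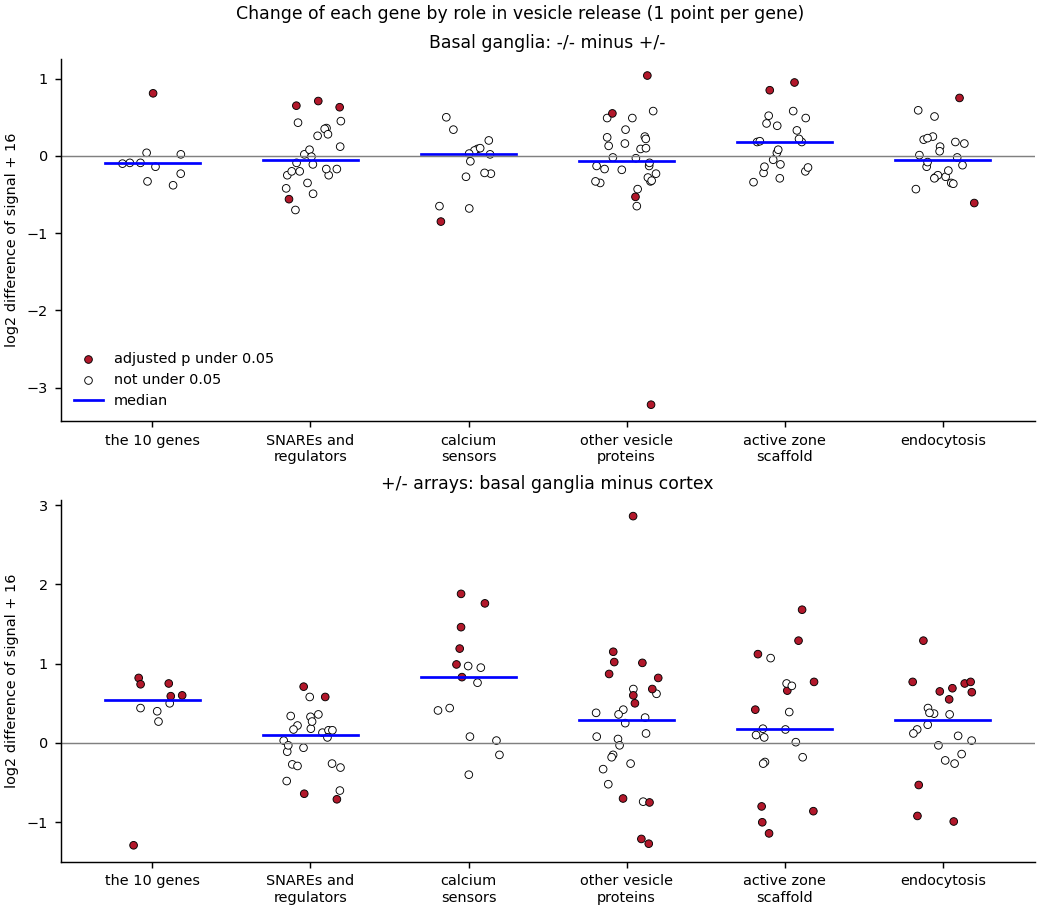
Difference of each gene on its brightest probe set as log2 of signal + 16, 1 point per gene, for the 10 genes and the 5 roles of the other 117, with a blue line at each median, -/- minus +/- in basal ganglia above and basal ganglia minus cortex in +/- arrays below. Filled points have an adjusted p under 0.05: Slc32a1 lies at -3.22 in the upper panel and 2.86 in the lower. The group listed as calcium sensors has the highest median in the lower panel, 0.83.

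Genes with the pattern most like each member over the 8 arrays were found by the root mean square difference of log2 values centred on each gene's mean. Nearest to Snap25 were Ipo7, an importin (0.073), Ppp4r3b (0.079) and Mbtd1 (0.080), where the median gene lay at 0.66. Ipo7 differed by 0.91 between genotypes in basal ganglia and by -1.26 between regions in +/- arrays. Nearest to Syt1 were Fabp3, Ormdl1 and Nat14, at 0.054 to 0.082. Sv2a was nearest to Hspa1a, Ifitm3 and Dscaml1, at 0.072 to 0.078, Syp to Dppa5a, Ppargc1a and B4galt7, and Stx1a to Tprgl, Ndufb6 and Selenom. Syt4 was nearest to Dach1, Cherp and Dcdc2a, and Syn2 to Clstn1, F11r and Pnma2. Members were left out of this search, so it cannot show whether members resemble each other. None of the genes found was on the list of the release machinery.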

How the data were processed

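Each deposited value is an intensity on a linear scale, the signal of 1 probe set on 1 array, and none is negative. The authors had scaled the arrays to a common level, as the equal trimmed means show. Detection calls were not used, and what software summarised the probes is not given in the sources used here. Arrays give no counts, and their number limits the precision.

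Probe sets were named by the platform annotation. Of 45101 probe sets, 64 controls and the lowest 30% by mean log2 were left out, which kept 31526. Group means of log2(signal + 16) were fitted over all 8 arrays in limma 3.58.1 (R 4.3.3) with lmFit and eBayes (4 residual and 2.76 prior degrees of freedom). Two-sided moderated tests were adjusted by Benjamini-Hochberg, with a threshold of 0.05. The fit was checked on simulated data. A gene is represented by its single-symbol probe set of highest mean log2.

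Named are all 10 genes, for each comparison up to 6 of the listed genes with the largest change past the threshold, and the 3 genes most like each member that passed. Other listed genes named were chosen after their values were seen. Of 127 listed genes, 5 had no single-symbol probe set used here and 5 were filtered. Members and lists were chosen with earlier results of these data known. Alternatives were the offset, the filter, the scaling, the arrays fitted, a replicate block, a variance trend and, chosen after the data were seen, the mean of a gene's probe sets.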

Additional observations from a re-analysis of the deposited data

How the results depend on the processing

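No member's difference reversed where it had passed. Of the recomputed values and counts together, 1625 were classed as unchanged, where a count could shift somewhat and still be classed so. Over all alternatives together, 79 values of members lost the threshold and 41 gained it. Changed counts of member probe sets past the threshold were as follows. In basal ganglia between genotypes (1), there were 3 with an offset of 64, with the lowest 50% left out or with an intensity trend, 2 with the replicate block, 0 with only the groups compared, and 0 to 1 leaving out 1 array. For the difference of effects (0), there were 2 with the trend. For the regions in +/- (8), there were 5 under median centring, 3 with only the groups compared, and 4 to 7 leaving out 1 array. In -/- (7), there were 12 with an offset of 64 or the trend, 11 with the lowest 50% left out, 4 with no filter or under median centring, and 2 to 8 leaving out 1 array. In cortex between genotypes the count was 0 under every alternative run.

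Counts over all probe sets moved as well. Between genotypes in basal ganglia (3070), they were 4969 with an offset of 64, 1761 with no filter, 4786 with the lowest 50% left out, 2001 under median centring, 1024 with only the groups compared, 2002 with the replicate block, 5889 with the trend, and 113 to 3415 leaving out 1 array. In cortex (71), they were 41 with an offset of 1, 146 with an offset of 64, 112 with the lowest 50% left out, 24 with only the groups compared, 36 with the block, 212 with the trend, and 19 to 39 leaving out 1 array. For the difference of effects (181), they were 3 with an offset of 1, 907 with an offset of 64, 10 with no filter, 1033 with the lowest 50% left out, 53 under median centring, 4 with the block, 1816 with the trend, and 3 to 4 leaving out 1 array. Between regions in +/- (7518), they were 3466 with only the groups compared and 3898 to 6948 leaving out 1 array, and in -/- (5438) 1896 to 6592. The cause of these moves was not tested beyond the fewer arrays or probe sets in some.

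Correlations of deviations from the group means ran from -0.026 to 0.022 between same-numbered arrays. The labels do not say whether same-numbered arrays of the groups belong together, and such correlations over all probe sets cannot settle it. Under the replicate block Syt1 1438282_at passed between genotypes in basal ganglia (0.85, adjusted p = 0.0263), and Syp in +/- did not (0.59, adjusted p = 0.0578). Among -/- arrays Syt1 1438282_at then passed between regions (0.74, adjusted p = 0.0177), and Syt1 1431191_a_at (0.78, adjusted p = 0.0693) and Syn2 1460230_at (0.60, adjusted p = 0.0589) did not. The block changed no other member's call. Scaling moved the share of calls that were higher: under median centring from 77.1% to 68.5% in basal ganglia between genotypes, from 90.1% to 67.9% for the difference of effects, from 46.4% to 31.6% between regions in +/- and from 61.8% to 26.5% in -/- (50.4% after quantile normalization). Fits that leave out 1 array assume that the lone array of its group varies like the others. Without detection calls, signals below 16, which made up 24.6% to 34.1% of an array, carry no order.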
